A study of Mus musculus with 24 samples.

Results

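The TAM receptors *Axl*, *Mertk* and *Tyro3* and their ligands *Gas6* and *Pros1* were followed through single nuclei of the mouse brain. The genes were chosen by name, and all 5 were among the 32288 genes counted. Mutant mice carried 2 *ret* alleles of *Pdgfb* (*Pdgfb* ret/ret), which lack the retention motif of platelet-derived growth factor B, and control mice carried 1 *ret* allele and 1 wild-type allele (*Pdgfb* ret/wt), so the controls also carried a *ret* allele. Both groups were on the B6 background, and the allele (*Pdgfb* tm3Cbet) was present in every cell of the animal rather than in a chosen cell type. There were 6 mutant and 6 control mice. The age was 5 months plus 0 to 18 days for the animals numbered 1 to 3 of each genotype, and 4 months plus 7 to 24 days for those numbered 4 to 6. Control mouse 6 was male and the others were female. From each mouse the deep brain, where vessels of mutants calcify, and the cortex with the hippocampus, where they do not, gave 1 library each, 24 in all.

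TAM receptors are tyrosine kinases that do not bind a dying cell directly. The bridging proteins Gas6 and protein S, the product of *Pros1*, bind phosphatidylserine on the dying cell with one end and a TAM receptor on the phagocyte with the other, and receptor signalling through phosphatidylinositol 3-kinase and Rac leads to engulfment and, together with the type I interferon receptor, lowers inflammatory responses. In the brain *Mertk* is a receptor of resting microglia and of astrocytes, *Axl* is low in resting microglia and rises in several reactive states, and *Tyro3* is mainly a receptor of neurons and myelinating cells. The study counted *Axl* among the genes of calcification-associated microglia (CAM), a state it described in mutants from these samples, so the level of *Axl* in CAM is not independent evidence on that state.

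The receptor genes lie on 2 chromosomes. On GRCm38, *Axl* (ENSMUSG00000002602) spans chr7:25757273-25788705 on the minus strand, *Mertk* (ENSMUSG00000014361) chr2:128698956-128802894 on the plus strand and *Tyro3* (ENSMUSG00000027298) chr2:119797733-119818104 on the plus strand. The ligand *Gas6* (ENSMUSG00000031451) spans chr8:13465374-13494490 on the minus strand and *Pros1* (ENSMUSG00000022912) chr16:62854307-62929346 on the plus strand. The counts took in introns, and exons made up 16.0% of *Axl*, 4.17% of *Mertk*, 30.4% of *Tyro3*, 8.75% of *Gas6* and 5.45% of *Pros1*, over lengths of 31.4, 103.9, 20.4, 29.1 and 75.0 kb. Levels are therefore compared here between cell classes for 1 gene and not between genes. The 250 bases before the annotated start of *Axl* (GRCm38.p6, chr7:25788734-25788983, minus strand) and of *Mertk* (chr2:128698665-128698914, plus strand) are shown, because these receptors had opposite orders in the microglial clusters described further on. The sequences are from RefSeq, read 5′ to 3′, and capitals mark GC boxes (GGGCGG on either strand).
Axl: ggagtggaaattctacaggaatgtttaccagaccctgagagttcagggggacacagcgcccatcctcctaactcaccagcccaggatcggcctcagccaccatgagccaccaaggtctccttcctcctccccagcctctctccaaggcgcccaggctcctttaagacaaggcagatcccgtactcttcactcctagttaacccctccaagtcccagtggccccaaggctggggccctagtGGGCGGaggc
Mertk: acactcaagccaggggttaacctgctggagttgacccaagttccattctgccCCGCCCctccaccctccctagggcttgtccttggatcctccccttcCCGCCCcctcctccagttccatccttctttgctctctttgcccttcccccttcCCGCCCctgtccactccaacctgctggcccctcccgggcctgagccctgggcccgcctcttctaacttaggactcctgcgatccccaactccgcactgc
Of 32851 RefSeq promoters searched over the same length, 32.7% held a GC box. The window of *Axl* held 1, that of *Mertk* 3, *Tyro3* 3, *Gas6* 4 and *Pros1* 5. The G and C content was 60% in *Axl*, 63.6% in *Mertk*, 73.2% in *Tyro3*, 54.8% in *Gas6* and 64.4% in *Pros1*, against a median of 52.4%. Letters of an interferon-stimulated response element stood in 2.98% of promoters and in none of the 5 members, those of a STAT site (TTCNNNGAA) in 7.02% and only in *Pros1* among the members, and those of an AP-1 site (TGANTCA) in 6.75% and in none of the members.

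The libraries held 23625232 to 96459036 unique molecular identifiers (UMIs). Of 237224 barcodes, 204925 met the study's limits on detected genes (over 500, under 7000) and on the mitochondrial share of UMIs (under 20%), and 151222 of these nuclei were kept in classes named from marker genes. Unnamed clusters held 41854 of 79967 cortical nuclei (median 852 UMIs) and 10005 of 124958 deep brain nuclei (median 8082). From the microglial class 726 cortical and 1118 deep brain nuclei were left out. In 7 of 12 cortical libraries the median nucleus held under 1500 UMIs, and none of the deep brain libraries was this shallow. Pairs of libraries shared at most 2.37% of their barcodes. Levels are given in CPM, the UMIs of a gene per 1000000 UMIs of all nuclei of a class in a library, with the SD over libraries that had at least 10 nuclei of the class.

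Among the receptors, *Mertk* was highest in microglia of the deep brain, at 2074 ± 249 CPM (SD, n = 12 libraries), followed by astrocytes at 604 ± 158, macrophages at 584 ± 270 (n = 11), mural cells at 229 ± 98.1 (n = 9) and oligodendrocyte precursor cells (OPC) at 164 ± 75.0. Neurons were at 1.64 ± 0.443 CPM and oligodendrocytes at 3.52 ± 1.32. Microglia ranged from 1626 to 2390 CPM and astrocytes from 320 to 813, so the classes did not overlap in any library. A UMI of *Mertk* was present in 94.96% of microglia and 73.1% of astrocytes. Because astrocytes outnumbered microglia, 41.1% of the *Mertk* UMIs of the deep brain came from astrocytes and 19.5% from the 2261 microglia. Another 1118 nuclei of the microglial class, left out because they held a UMI of a gene of another cell type, had 10.23% of the *Mertk* UMIs. Nuclei of unnamed clusters had 19.68%.

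*Axl* had another order. It was highest in mural cells, which ensheathe capillaries and arterioles, at 208 ± 119 CPM (n = 9 libraries), and in macrophages, at 158 ± 103 (n = 11), with 1 macrophage library at 0. Fibroblasts of the vessel wall and meninges had 70.1 ± 15.3 CPM and astrocytes 51.9 ± 7.34. Over both genotypes microglia had 13.9 ± 11.6 CPM, endothelial cells 12.8 ± 7.49 and neurons 0.357 ± 0.132. Microglia were below endothelial cells in controls (6.53 and 16.8 CPM) and above them in mutants (21.2 and 8.75). Mural cells (58 UMIs in 184 nuclei) and macrophages (79 UMIs in 254 nuclei) rest on few counts. Astrocytes held 48.3% of all *Axl* UMIs of the deep brain, fibroblasts 8.23% and microglia 1.81%, beside 1.267% in the microglial nuclei left out. OPC held 7.42%, neurons 6.34% and nuclei of unnamed clusters 17.9%.

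*Tyro3* was highest in oligodendrocytes, at 128 ± 14.6 CPM, above newly forming oligodendrocytes (72.1 ± 25.8), neurons (35.7 ± 7.16) and OPC (19.2 ± 5.05). Microglia had 7.64 ± 5.13 CPM from 39 UMIs in 2261 nuclei, and macrophages had 9 UMIs in 263 nuclei. Neurons still held 60.1% of the *Tyro3* UMIs and oligodendrocytes 26.8%. The receptors thus led in different classes, *Mertk* in microglia and astrocytes, *Axl* in mural cells, macrophages and fibroblasts and *Tyro3* in the oligodendrocyte lineage and neurons.

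The ligand *Gas6* was highest in choroid plexus epithelium, which secretes cerebrospinal fluid, at 427 ± 85.2 CPM (n = 6 libraries). Macrophages (298 ± 88.1), endothelial cells (254 ± 107) and ependymal cells (243 ± 85.2) came next. Microglia (88.1 ± 20.4) and neurons (86.4 ± 9.84) had nearly the same level, and oligodendrocytes had 17.1 ± 3.06. Neurons were the most numerous class and held 82.2% of all *Gas6* UMIs of the deep brain.

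*Pros1*, whose product also circulates as a cofactor of anticoagulant protein C, was highest in microglia, at 454 ± 44.8 CPM, with a UMI in 58.3% of nuclei. Macrophages had 151 ± 89.5 CPM, endothelial cells 118 ± 29.2 and fibroblasts 90.9 ± 12.8. Neurons had 7.33 ± 1.11 CPM but 33.1% of all *Pros1* UMIs of the deep brain, against 15.1% in microglia (8.513% in the microglial nuclei left out) and 11.4% in astrocytes. Nuclei of unnamed clusters held 15.61%. By level, microglia led both for the receptor *Mertk* and for the ligand *Pros1*.

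In the cortex the leading classes were again microglia and astrocytes for *Mertk* (1919 ± 221 and 1078 ± 177 CPM, n = 12 libraries each), and microglia for *Pros1* (429 ± 75.0). *Tyro3* was at 126 ± 17.2 CPM in oligodendrocytes and at 130 ± 56.3 in newly forming oligodendrocytes, of which only 4 libraries had enough nuclei. Mural, endothelial, ependymal and choroid plexus nuclei and macrophages were too few there for a level in enough libraries. *Gas6* had 107 ± 25.6 CPM in cortical microglia and 61.9 ± 6.50 in neurons. *Axl* had 64.7 ± 13.7 CPM in cortical astrocytes and 40.3 ± 15.0 in fibroblasts (n = 10 libraries), the reverse of their order in the deep brain. Cortical microglia had 12.3 ± 11.1 CPM of *Axl*, and 4 of 12 libraries were at 0.

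**Figure D1:**
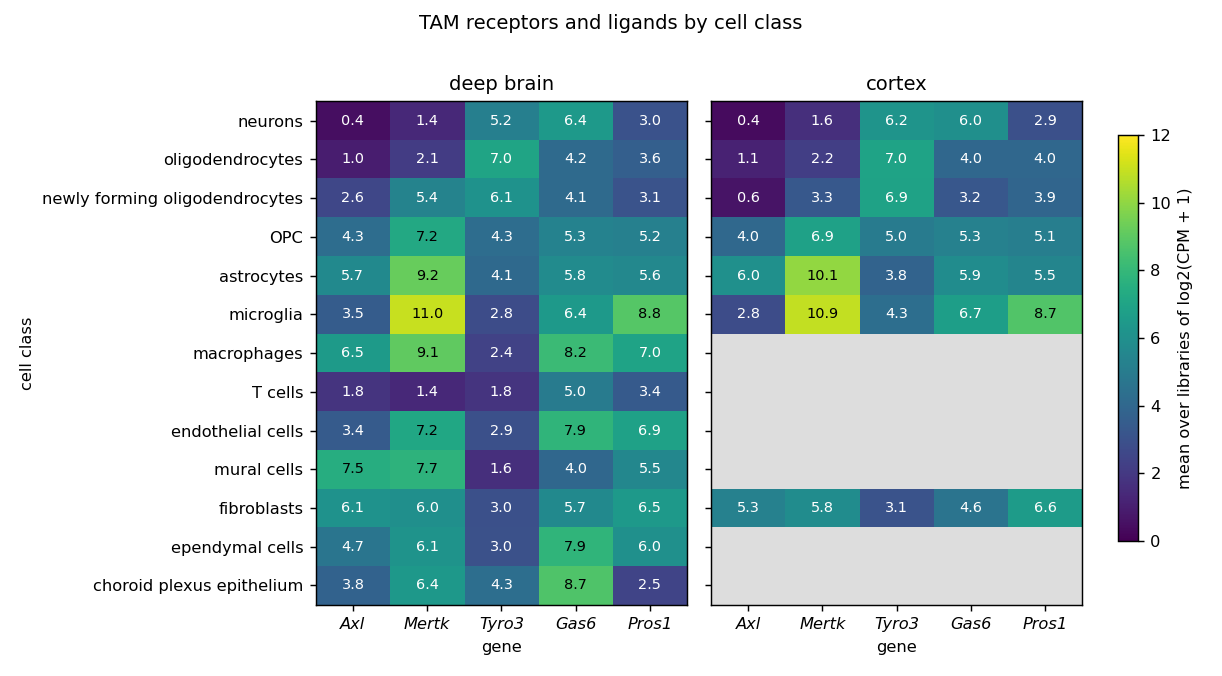
Mean over libraries of log2(CPM + 1) for the 5 genes (columns) in each cell class (rows) of the deep brain (left) and the cortex (right), with the value printed in each cell and colour on the same scale; grey cells were not shown because too few cortical libraries had 10 nuclei. In the deep brain microglia are brightest for *Mertk* and *Pros1*, choroid plexus epithelium for *Gas6*, mural cells for *Axl* and oligodendrocytes for *Tyro3*. In the cortex, where choroid plexus epithelium and mural cells are grey, microglia are brightest for *Gas6* and astrocytes for *Axl*.

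To see which classes differed beyond their spread, each class was compared with the next lower one in the order of mean log2(CPM + 1) within the same deep brain libraries (two-sided exact paired permutation test, Benjamini-Hochberg adjustment over 60 pairs). The difference passed in 16 of the 60 pairs. Pairs with choroid plexus epithelium or T cells shared at most 6 libraries, where the smallest p is 0.03125 before adjustment (0.0625 with 5 libraries), so a difference could hardly pass there. For *Mertk*, microglia were above astrocytes in 12 of 12 libraries by 1.82 on the log2 scale (exact test, adjusted p = 0.00366), whereas astrocytes and macrophages differed by 0.14 (exact test, adjusted p = 0.953), macrophages were above mural cells by 1.15 and mural cells above OPC by 0.48 (exact tests, adjusted p = 0.0335 for each). For *Axl*, mural cells and macrophages (1.22, exact test, adjusted p = 0.668) and macrophages and fibroblasts (0.42, exact test, adjusted p = 0.954) did not differ beyond their spread, while fibroblasts were above astrocytes by 0.41 (exact test, adjusted p = 0.0469) and astrocytes above ependymal cells by 1.03 (exact test, adjusted p = 0.0195).

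For *Tyro3*, oligodendrocytes were above newly forming oligodendrocytes by 0.89 (exact test, adjusted p = 0.00533), and these were above neurons by 0.94 (exact test, adjusted p = 0.00366). Below neurons no step passed, although neurons were above choroid plexus epithelium in 6 of 6 libraries by 0.82 (exact test, adjusted p = 0.0938), at the smallest p that 6 libraries allow. For *Gas6*, choroid plexus epithelium was above macrophages by 0.33 in the 5 libraries with both (exact test, adjusted p = 0.489), too few for the test to pass. The next steps, to endothelial cells (0.18) and ependymal cells (0.01), did not pass (exact tests, adjusted p = 0.682 and 1.0). Ependymal cells were above microglia in 12 of 12 libraries by 1.42 and neurons above astrocytes in 12 of 12 by 0.67 (exact tests, adjusted p = 0.00366 for each). For *Pros1*, microglia were above macrophages in 11 of 11 libraries by 1.86 (exact test, adjusted p = 0.00533), fibroblasts above ependymal cells by 0.47 (exact test, adjusted p = 0.00533) and OPC above oligodendrocytes by 1.60 (exact test, adjusted p = 0.00366). The other 4 pairs that passed were newly forming oligodendrocytes above oligodendrocytes (3.25) and oligodendrocytes above neurons (0.75) for *Mertk*, oligodendrocytes above neurons (0.54) for *Axl* and fibroblasts above OPC (0.38) for *Gas6*.

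Deep brain microglia formed 4 clusters when the 5 members had no part in the clustering. Of 2261 nuclei, 1528 were homeostatic-like, 60 were CAM-like, 49 were like the interferon response state (IFNR-like) and 624 belonged to an unnamed cluster led by mitochondrial genes (433 mutant and 191 control nuclei). Mutant 4 stood apart. Of its 267 microglia, 48 were homeostatic-like, 3 CAM-like and 4 IFNR-like, and the rest, more than in any other mouse, were in the unnamed cluster. All 10 CAM markers and all 6 markers of proliferating microglia were raised in the CAM-like cluster, and its leading genes were *Lpl*, *Lilrb4a*, *Ccl4*, *Cybb*, *Gpnmb*, *Flt1*, *Cd74*, *Igf1*, *Ccl3* and *Spp1*. It held 54 mutant and 6 control nuclei. The values per cluster are given as a description, with 95% Poisson intervals that cover counting error only.

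*Axl* stood at 137 CPM (87.1 to 206, 23 UMIs) in CAM-like nuclei and at 89.4 (42.9 to 164, 10 UMIs) in IFNR-like nuclei, against 8.01 (5.33 to 11.6, 28 UMIs) in homeostatic-like nuclei, ratios of 17.2 and 11.15. These intervals did not overlap the homeostatic-like one. A UMI of *Axl* was found in 14 of 60 CAM-like nuclei (23.3%, exact interval 13.4 to 36.0%), in 7 of 49 IFNR-like nuclei (14.3%) and in 1.70% of homeostatic-like nuclei, whose median depths were 2694.5, 2322 and 2287 UMIs. All 6 mutants had CAM-like nuclei with *Axl*, with 2, 3, 4, 3, 5 and 6 UMIs in 8, 8, 16, 3, 6 and 13 nuclei. In the 6 CAM-like nuclei of controls there were 0 UMIs, which allows up to 220.5 CPM. *Axl* in IFNR-like nuclei was 90.2 CPM in mutants and 87.5 in controls, from 3 mice of each genotype.

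*Mertk* had the opposite order. It stood at 2145 CPM (2097 to 2194) in homeostatic-like nuclei, 1698 (1465 to 1957) in IFNR-like nuclei and 1542 (1359 to 1742) in CAM-like nuclei, ratios of 0.792 and 0.719. Neither interval reached the homeostatic-like one at this resolution of the clustering. At a resolution of 0.8 the interval of IFNR-like nuclei (1634 to 2101) overlapped that of homeostatic-like nuclei (2084 to 2170), while that of CAM-like nuclei (1379 to 1772) did not. In mutants 1 to 6 *Mertk* was at 1345, 1516, 2032, 1867, 1752 and 1120 CPM in CAM-like nuclei and at 2439, 2560, 1747, 2528, 2369 and 1709 in homeostatic-like nuclei. It was lower in the CAM-like nuclei of 5 mutants and higher in those of mutant 3, which had 16 of the 60 nuclei. The ligands had overlapping intervals in the clusters, with *Pros1* at 465 CPM in homeostatic-like, 448 in CAM-like and 483 in IFNR-like nuclei and *Gas6* at 83.6, 83.7 and 62.6, and *Tyro3* had 22, 2 and 0 UMIs. At clustering resolutions of 0.2 and 0.8 *Axl* was at 138 and 142 CPM in CAM-like nuclei.

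Markers of other cell types were counted in the CAM-like nuclei, since macrophages and mural cells had more *Axl* than microglia. The 6 macrophage markers together had 11.95 CPM in the CAM-like and 0.8586 in the homeostatic-like cluster, with 5 of 6 at 0 in each, of which *Mrc1* was set to 0 by the filter on nuclei. The 5 T cell markers had 0.0 and 0.5724 CPM, the 6 mural markers 11.95 (4 at 0) and 10.59, and the 5 fibroblast markers 17.93 (3 at 0) and 8.013. The 6 endothelial markers had 203.2 CPM (34 UMIs, *Cldn5* and *Slco1a4* at 0) against 31.19, and *Flt1* among them is also a CAM marker and a leading gene of the cluster. The part of these markers in the level of *Axl* was not tested. In the cortex no CAM-like cluster formed. An unnamed cortical cluster of 55 nuclei with T cell and MHC class II genes among its leading genes had *Axl* at 80.1 CPM and *Mertk* at 640. All 6 interferon response markers and 3 of 10 CAM markers were also raised in it. It stayed unnamed because markers of neurons, OPC and T cells were raised too.

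**Figure D2:**
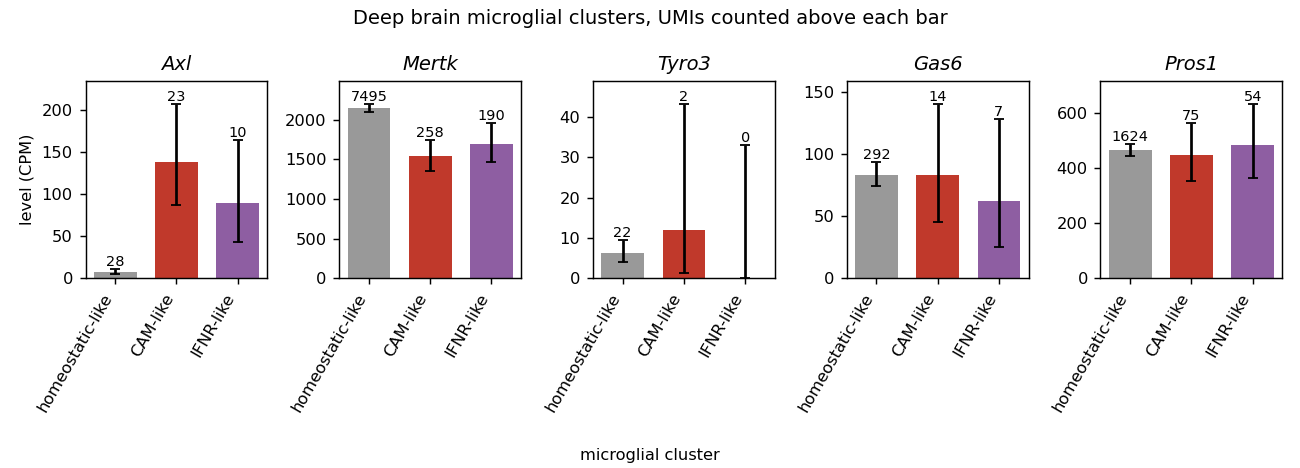
Level in CPM (y axis, its own scale for each gene) in the homeostatic-like, CAM-like and IFNR-like clusters of deep brain microglia (x axis), nuclei of all 12 mice summed; error bars are 95% Poisson intervals for counting error and the UMIs counted are printed above the bars. *Axl* stands at 8.01, 137 and 89.4 CPM and *Mertk* at 2145, 1542 and 1698, and the intervals of the other genes overlap.

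Mutants and controls were then compared over mice, class by class (edgeR quasi-likelihood test on summed UMIs, Benjamini-Hochberg adjustment over all genes tested, threshold 0.05; values after ± are standard errors of the log2 fold change). In deep brain microglia of mutants *Axl* was at 6.19, 20.4, 32.2, 14.0, 17.0 and 37.6 CPM (mice 1 to 6) and in controls at 4.94, 4.63, 16.7, 3.00, 7.41 and 2.54, with 56 and 14 UMIs in all. Mutants had a mean of 21.2 ± 11.7 CPM (SD, n = 6) and controls 6.53 ± 5.25 (n = 6). The groups overlapped, as mutants 1 and 4 lay below control 3. The gene was below the filter on low counts. Without that filter *Axl* was 3.22-fold higher in mutants (log2 fold change 1.69 ± 0.44, edgeR, adjusted p = 0.0389), where 0.349% of genes passed, and leaving out each mouse in turn gave 1.48 to 2.12 with adjusted p between 0.00618 and 0.243, above the threshold in 8 of 12 cases. DESeq2 without the filter gave 1.77 (adjusted p = 0.502). With all nuclei of the microglial class, those with UMIs of other cell types included, edgeR gave 1.98 ± 0.36 (adjusted p = 1.59e-05, 0.678% of genes called). Mutants were above controls of the same number in 6 of 6 cases, but no source names these numbers as pairs. With mice of the same number or of the same age as a block the change was 1.69 ± 0.41 and 1.72 ± 0.41 (edgeR without the filter, adjusted p = 0.0161 and 0.0147, 0.37% and 0.323% of genes called). Astrocyte markers in these microglia were at 300.7, 435.9 and 562.8 CPM in mutants (lowest, median, highest) and 302.2, 353.9 and 439.7 in controls, endothelial markers at 30.07, 47.57 and 54.48 and at 20.31, 34.59 and 57.08, and macrophage markers at 4.124 CPM or less. Mural markers, at 4.124, 7.765 and 11.36 CPM in mutants, were higher in controls, at 7.617, 17.3 and 21.03. The part of these markers in the difference was not tested. In the cluster led by mitochondrial genes, with more mutant than control nuclei largely through mutant 4, *Axl* was at 9.53 CPM in mutants (8 UMIs) and 2.43 in controls (1 UMI).

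With the CAM-like nuclei taken out the difference in *Axl* was 2.04-fold (log2 fold change 1.03 ± 0.50, edgeR without the filter, adjusted p = 0.735). Within the homeostatic-like cluster the level was 10.7 CPM in mutants (18 UMIs) and 5.54 in controls (10 UMIs). The share of microglia with a UMI of *Axl* was 1.61, 2.38, 6.15, 1.498, 3.03 and 5.83% in mutants and 1.17, 0.995, 2.96, 0.763, 1.84 and 0.553% in controls. The means were 3.42% ± 2.07 and 1.38% ± 0.892 (SD, n = 6 each), and the difference did not pass after adjustment over the 5 members (two-sided exact permutation test over all ways of dividing 12 libraries into 6 and 6, p = 0.0455, adjusted p = 0.162, smallest possible p 0.00216). Thinned to 1000 UMIs per nucleus, which left out 30 mutant and 13 control nuclei, the shares were 1.79% and 0.309% (exact test, p = 0.0281, adjusted p = 0.141). The share with *Pros1* went the other way, at 56.1% ± 4.06 in mutants and 61.8% ± 4.79 in controls (exact test, adjusted p = 0.162), with an adjusted p of 0.0541 without control 2 and of 0.606 after thinning (34.1% against 35.6%, exact tests). A UMI of *Axl* was also found in 0.366% of neurons (median 9707.5 UMIs) and 0.282% of oligodendrocytes (median 2670), against a median of 2214 UMIs in microglia.

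*Mertk*, the microglial TAM receptor at rest, was at 1626, 2202 and 2390 CPM (lowest, median and highest mouse) in mutants and 1863, 1994 and 2331 in controls. The log2 fold change was 0.04 ± 0.10 (edgeR, adjusted p = 0.991). *Pros1* was at 365, 453 and 484 CPM in mutants and 414, 451 and 547 in controls, a log2 fold change of -0.06 ± 0.10 (edgeR, adjusted p = 0.981). In both genes the mice of the groups overlapped. *Gas6* was at 68.2, 102 and 118 CPM in mutants and 63.3, 74.1 and 104 in controls (0.28 ± 0.17, edgeR, adjusted p = 0.894). *Tyro3*, at 6.64 ± 4.32 against 8.64 ± 6.07 CPM, was below the filter. EdgeR thus called 0 of the 3 members tested in microglia (0 at an unadjusted p under 0.05, DESeq2 0), where it called 0.138% of all genes. Outside the CAM-like cluster edgeR called 0 of 3 members (0 at an unadjusted p under 0.05, DESeq2 0), with 0.125% of all genes called.

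**Figure D3:**
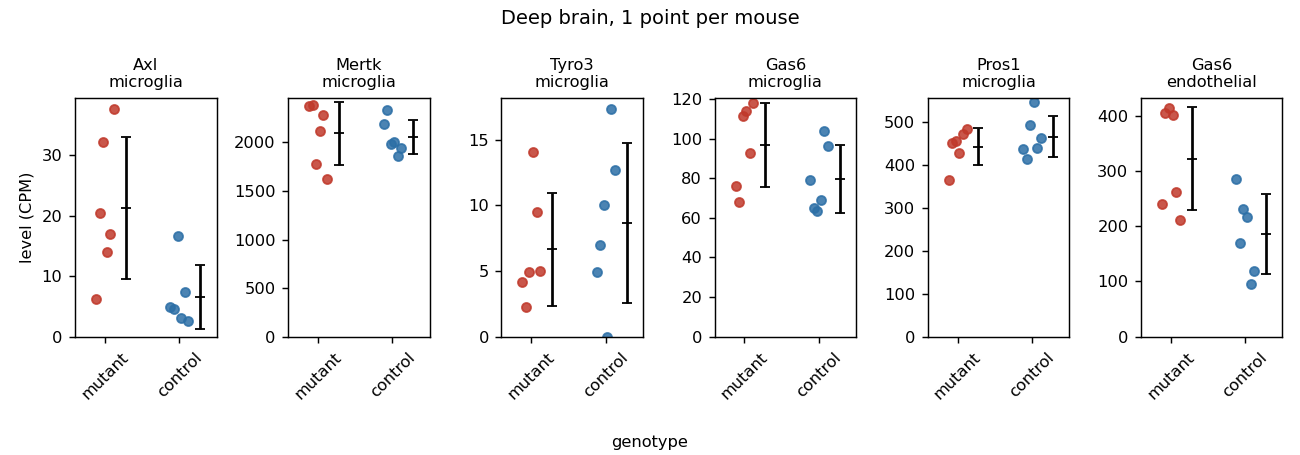
Level in CPM (y axis, its own scale per panel) of the 5 genes in deep brain microglia and of *Gas6* in deep brain endothelial cells, 1 point per mutant (red) or control (blue) mouse (x axis), with the mean and SD beside the points. *Axl* in microglia and *Gas6* in endothelial cells lie higher in mutants with overlap, and *Mertk* and *Pros1* in microglia overlap.

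Over all 10 deep brain classes with enough nuclei, edgeR called 0 of 34 tests of members (2 at an unadjusted p under 0.05, DESeq2 0). The shares of all genes called were 0.303% in neurons, 1.74% in oligodendrocytes, 0.0% in newly forming oligodendrocytes, 0.0473% in OPC, 5.01% in astrocytes, 0.0% in macrophages, 1.34% in endothelial cells, 0.0136% in fibroblasts and 0.0% in ependymal cells. Log2 fold changes of members lay between -0.34 and 0.88, with a median size of 0.163 beside a median standard error of 0.194. The largest was *Gas6* in endothelial cells, which line the vessels that calcify in mutants. It was at 241, 405, 414, 401, 263 and 211 CPM in mutants and 286, 169, 230, 216, 94.9 and 119 in controls, means of 323 ± 93.7 and 186 ± 72.1 (SD, n = 6 each). The groups overlapped, and the log2 fold change of 0.88 ± 0.24 missed the threshold (edgeR, adjusted p = 0.0734). With mice of the same age as a block it was 0.84 ± 0.22 (edgeR, adjusted p = 0.0656, 1.39% of genes called), and with mice of the same number as a block 0.86 ± 0.22 (adjusted p = 0.0431, 1.85% called). It also passed without the filter on low counts, where 0.983% of genes were called, and without Scrublet doublets, where 1.95% were. The 6 mural cell markers went the other way. They were at 77.18, 377.7 and 1230 CPM (lowest, median, highest) in the endothelial class of mutants and 1068, 2278 and 3743 in that of controls. The 6 macrophage markers were at 0.0, 22.75 and 122.2 CPM in mutants (3 of 6 markers at 0) and 0.0, 3.293 and 195.1 in controls, and the 5 astrocyte markers at 405.2, 582.3 and 861.0 and at 335.9, 437.8 and 791.1. The part of these markers in the result was not tested. *Gas6* in mural cells themselves was 46.7 ± 42.5 CPM (n = 9 libraries). Mural cells were too few for a test, with 52 mutant and 152 control nuclei.

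Deep brain astrocytes held the largest share of *Axl* and *Mertk* UMIs of any class, and edgeR called 0 of 5 members there (0 at an unadjusted p under 0.05, DESeq2 0). *Axl* was at 49.1 ± 4.12 CPM in mutants and 54.7 ± 9.12 in controls (-0.16 ± 0.10, edgeR, adjusted p = 0.451) and *Mertk* at 600 ± 183 and 607 ± 147 (-0.04 ± 0.20, adjusted p = 0.962). *Mertk* in OPC was at 188 ± 94.0 and 140 ± 45.9 CPM (0.44 ± 0.22, edgeR, adjusted p = 0.895), and only the fit without the filter on low counts called it (0.44 ± 0.09, adjusted p = 0.00118, 0.34% of genes called). Its counts were the same in both fits, so the smaller standard error came with the low-count genes taken in and not from closer mice. *Mertk* in macrophages was at 685 ± 334 and 462 ± 94.1 CPM (0.58 ± 0.31, edgeR, adjusted p = 0.72). The mice overlapped in both classes. *Axl* in neurons had the second largest fold change, 0.79 ± 0.21 (edgeR, adjusted p = 0.129), at levels of only 0.454 and 0.260 CPM.

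In the cortex edgeR called 0 of 19 tests of members in 6 classes (2 at an unadjusted p under 0.05, DESeq2 1). Of all genes, 0.0% were called in neurons, 1.07% in oligodendrocytes, 0.0% in OPC, 2.36% in astrocytes, 0.88% in microglia and 0.0% in fibroblasts. *Pros1* in oligodendrocytes came closest. It was at 24.1, 28.8, 21.7, 17.9, 12.6 and 20.3 CPM in mutants and 11.6, 13.1, 13.6, 11.0, 10.8 and 6.39 in controls, so that only mutant 5 overlapped the controls. The means were 20.9 ± 5.49 and 11.1 ± 2.56 CPM (SD, n = 6 each; 0.91 ± 0.23, edgeR, adjusted p = 0.0637, and DESeq2 0.93, adjusted p = 0.0319, 2.03% of genes called). With mice of the same age as a block it passed, at 0.96 ± 0.19 (edgeR, adjusted p = 0.00609, 4.23% of genes called), as it did with mice of the same number as a block (0.85 ± 0.21, adjusted p = 0.0167, 5.31% called) and without the filter (0.93 ± 0.23, adjusted p = 0.0347, 0.891% called). Scrublet called 23.2% of mutant and 10.1% of control nuclei of the cortex doublets, and without these the change was 0.91 ± 0.24 (edgeR, adjusted p = 0.0709, 1.26% called). These calls were very uneven between libraries. They took 5071 of 10053 nuclei in mutant 4 and 2571 of 6752 in control 3. They took 0 of 4467 in mutant 3 and 1 each in controls 1, 2 and 4. The shares therefore do not compare the genotypes, and the removal was a limited check. Microglial markers in this class, which could carry *Pros1*, were at 50.34, 79.46 and 102.2 CPM in mutants and 72.18, 84.29 and 154.4 in controls. Within the age groups the change was 1.00 ± 0.28 in mice 1 to 3 (edgeR, adjusted p = 0.0484, 3.99% of genes called) and 0.82 ± 0.31 in mice 4 to 6 (adjusted p = 1.0). It was 0.96 ± 0.30 in the libraries with a median under 1500 UMIs per nucleus (edgeR, adjusted p = 0.0828) and 0.71 ± 0.32 in the other cortical libraries (adjusted p = 0.599). In deep brain oligodendrocytes *Pros1* was at 12.3 CPM in mutants and 10.8 in controls (0.21 ± 0.17, edgeR, adjusted p = 0.627).

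*Gas6* in OPC was at 28.7 ± 11.3 CPM in mutants and 55.0 ± 18.3 in controls (-0.69 ± 0.26, edgeR, adjusted p = 0.81), from 93 and 119 UMIs. Over 18 alternative fits the log2 fold change lay between -1.20 and -0.30, and none passed. *Tyro3* in astrocytes, below the filter with 50 and 62 UMIs, was at 4.91 to 16.5 CPM in mutants and 17.7 to 27.5 in controls, and the groups did not overlap (edgeR without the filter, -0.76 ± 0.36, adjusted p = 0.431). In cortical microglia *Mertk* was at 2028 ± 160 CPM in mutants and 1811 ± 232 in controls (0.16 ± 0.11, edgeR, adjusted p = 0.862). *Axl* there, below the filter, was at 21.4, 11.5, 16.8, 23.9, 9.26 and 14.3 CPM in mutants (26 UMIs) and at 0.0 in controls 1 to 4, 15.7 in control 5 and 34.2 in control 6 (11 UMIs, 3 of them in the 21 nuclei of control 6). The controls at 0 had 29 to 33 nuclei each, and the groups overlapped. Of these 37 UMIs, 16 were in the unnamed cortical cluster with T cell genes and raised interferon response markers, which held 43 mutant and 12 control nuclei. The homeostatic-like cortical clusters had *Axl* at 6.14, 9.75 and 8.62 CPM. The part of the unnamed cluster in the difference was not tested.

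**Figure D4:**
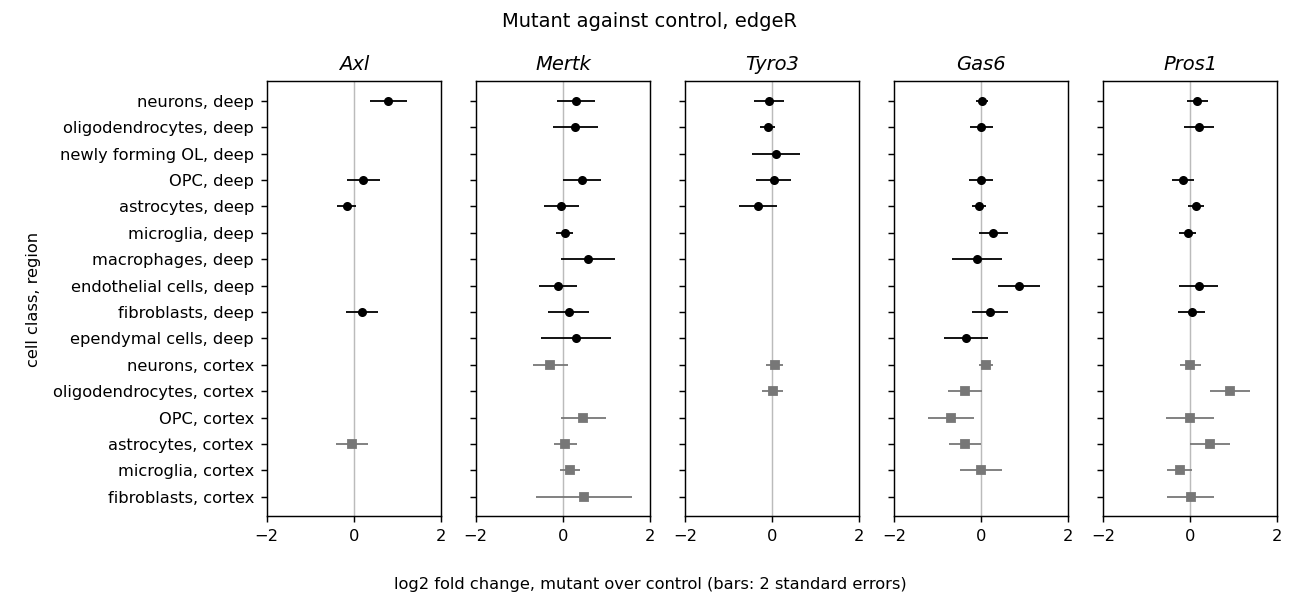
Log2 fold change of mutants over controls (x axis) for each gene (panels) in each class tested (y axis), black circles for the deep brain and grey squares for the cortex, with bars of 2 standard errors; a class without a point was below the filter on low counts or below the limit on nuclei. *Gas6* in deep brain endothelial cells (0.88) and *Pros1* in cortical oligodendrocytes (0.91) lie farthest from 0.

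More tests of members passed between the regions than between the genotypes. Between deep brain and cortex of the 6 controls, 5 of 26 tests of members passed (8 at an unadjusted p under 0.05, DESeq2 4), while of all genes 36.5% were called in neurons, 6.19% in oligodendrocytes, 2.99% in OPC, 10.5% in astrocytes, 2.5% in microglia and 1.24% in fibroblasts. In neurons 3 of 5 members passed, where more than 1 in 3 of all genes did. The fit had no term for the mouse. With the mouse as a block all 5 calls were kept, and 40.8%, 5.05% and 13.3% of genes were called in neurons, OPC and astrocytes. *Mertk* in astrocytes was at 395, 597 and 809 CPM (lowest, median and highest mouse) in the deep brain of controls and 808, 1053 and 1335 in their cortex. Only the highest deep brain library reached the lowest cortical one, and each of the 6 control mice had the higher level in the cortex. The difference was -0.82 ± 0.16 on the log2 scale (edgeR, adjusted p = 0.00115), and it was -0.78 in mice 1 to 3 (adjusted p = 0.00528, 5.64% of genes called) and -0.85 in mice 4 to 6 (adjusted p = 0.0637). Mutants, which had no part in that test, were at 600 ± 183 and 1101 ± 172 CPM. The astrocyte classes of the regions held different clusters. In the deep brain 7739 of 10423 astrocytes were in a cluster led by *Slc6a11*, a GABA transporter, and the rest in clusters led by *Slc1a3*, a glutamate transporter, as were all 1577 cortical astrocytes. When only the *Slc1a3* clusters were compared, *Mertk* in controls was at 935 ± 127 CPM in the deep brain and 1054 ± 195 in the cortex (SD, n = 6 each). The difference then no longer passed (-0.20 ± 0.13, edgeR, adjusted p = 0.661), and 0.727% of all genes were called. Microglial markers in the astrocyte class of controls were at 68.0, 78.39 and 96.78 CPM in the deep brain and 60.02, 114.1 and 160.0 in the cortex, and their part in the difference was not tested.

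*Tyro3* in neurons, where it is a synaptic and growth-related receptor, was at 24.5, 37.4 and 49.3 CPM in the deep brain of controls and 61.3, 76.0 and 84.5 in the cortex. The groups did not overlap, and the difference was -1.12 ± 0.15 (edgeR, adjusted p = 9.73e-05), -1.28 in mice 1 to 3 (adjusted p = 0.0118, 27.5% of genes called) and -0.94 in mice 4 to 6 (adjusted p = 0.00216, 12.9% called). *Gas6* in neurons had the other direction, with 68.5, 86.1 and 107 CPM in the deep brain and 54.6, 59.3 and 69.5 in the cortex (0.38 ± 0.09, edgeR, adjusted p = 0.00435), which was 0.47 in mice 1 to 3 (adjusted p = 0.0294) and 0.29 in mice 4 to 6 (adjusted p = 0.122).

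Both genes also differed in level between kinds of neuron. In the deep brain of the 6 controls *Tyro3* was at 72.6 ± 11.4 CPM in clusters with *Slc17a7*, the vesicular transporter of cortical glutamatergic neurons, at 49.7 ± 17.3 in clusters with *Gad1* or *Gad2*, which mark GABAergic neurons (71.7 ± 4.86 in mutants), and at 7.39 ± 1.91 in clusters with *Slc17a6*, the transporter of most subcortical glutamatergic neurons. *Gas6* was at 58.1 ± 5.96, 65.1 ± 9.04 and 105 ± 15.0 CPM in the same clusters. Clusters in which these markers were mixed had 16.0 ± 1.18 CPM of *Tyro3* and 106 ± 7.33 of *Gas6*. The *Slc17a6* clusters thus had the least *Tyro3* and the most *Gas6* of the named kinds. Of 64168 deep brain neurons, 7579 were in *Slc17a6* clusters and 29972 in mixed clusters, and both kinds were found only in the deep brain. When only *Slc17a7* neurons were compared between the regions, *Tyro3* differed by -0.27 (edgeR, adjusted p = 0.247) and *Gas6* by 0.00 (adjusted p = 1.0), with 0.229% of all genes called. Among *Gad1* or *Gad2* neurons *Tyro3* differed by 0.13 (adjusted p = 0.869) and *Gas6* by -0.07 (adjusted p = 0.766), with 0.618% of all genes called. Neither region difference passed the test within these kinds of neuron.

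*Mertk* in neurons was far lower than in microglia and astrocytes, at 1.47 ± 0.309 CPM in the deep brain of controls and 2.38 ± 0.806 in the cortex (-0.78 ± 0.22, edgeR, adjusted p = 0.0123; -0.75 in mice 1 to 3 and -0.79 in mice 4 to 6, adjusted p = 0.131 and 0.0872). Within *Slc17a7* neurons the difference was -0.28 ± 0.31 (edgeR, adjusted p = 0.716) and within *Gad1* or *Gad2* neurons -1.42 ± 0.31 (adjusted p = 0.0596), so it passed in neither kind. Astrocyte markers in the neuronal class moved with it, at 203.8, 295.2 and 349.5 CPM in the deep brain and 451.1, 489.9 and 616.6 in the cortex of controls, and their part was not tested. *Tyro3* in OPC was at 19.1 ± 2.52 and 32.0 ± 10.1 CPM (-0.75 ± 0.21, edgeR, adjusted p = 0.0468), and 5 of the 6 fits that left out 1 mouse gave an adjusted p above 0.05, as did DESeq2 (0.0568) and the fit without the filter (0.1). That fit called *Mertk* in OPC instead (0.52 ± 0.14, adjusted p = 0.00749, 2.73% of genes called), against 0.47 ± 0.21 from the same counts with the filter (adjusted p = 0.291). Markers of oligodendrocytes, the class with the highest *Tyro3* level, were at 498.7, 549.8 and 643.0 CPM in OPC of the deep brain and 616.0, 663.2 and 889.7 in those of the cortex. Markers of neurons, which held most *Tyro3* UMIs, were at 1064, 1208 and 1313 CPM and at 1197, 1453 and 1919. The part of these markers was not tested. In microglia *Mertk* (0.15 ± 0.10, edgeR, adjusted p = 0.693) and *Pros1* (-0.02 ± 0.13, adjusted p = 0.991) did not pass between the regions, and *Gas6* differed by -0.52 ± 0.20 (adjusted p = 0.285). With all nuclei of the microglial class, those with UMIs of other cell types included, *Mertk*, *Tyro3* and *Pros1* passed, where 19.8% of all genes did.

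**Figure D5:**
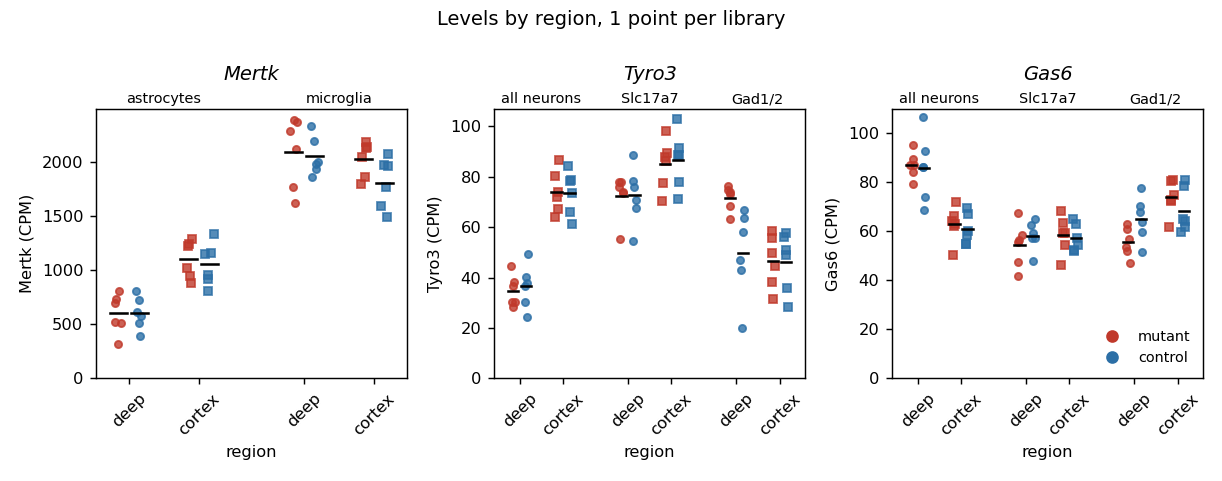
Level in CPM (y axis) of *Mertk* in astrocytes and microglia and of *Tyro3* and *Gas6* in all neurons, in *Slc17a7* neurons and in *Gad1* or *Gad2* neurons, by region (x axis), 1 point per library, circles for the deep brain and squares for the cortex, mutants in red and controls in blue, with lines at the means. *Mertk* in astrocytes and *Tyro3* in all neurons are higher in the cortex in both genotypes, and *Tyro3* in *Slc17a7* neurons overlaps between the regions.

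Whether the genotype difference differed between the regions was tested over all 24 libraries. The fit had no term for the mouse, although each mouse gave a library of both regions. EdgeR called 0 of 26 tests of members (3 at an unadjusted p under 0.05, DESeq2 0), with 0.162% of all genes called in neurons and 0.0% in oligodendrocytes, OPC, astrocytes, microglia and fibroblasts. The term for *Pros1* in oligodendrocytes was -0.70 ± 0.30 (edgeR, adjusted p = 1.0) and that for *Mertk* in astrocytes -0.10 ± 0.25 (adjusted p = 1.0). This test, which did not use the pairing of regions within a mouse, thus showed a genotype effect that differed between the regions for no member. The 3 terms with an unadjusted p under 0.05 were followed over 16 alternative fits, among them the fit with the mouse as a block. The lowest adjusted p (edgeR or DESeq2) was 0.407 for *Axl* in neurons, 0.792 for *Gas6* in OPC and 0.906 for *Pros1* in oligodendrocytes.

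Genes around the receptors were counted from 5 lists with 50 genes. They covered enzymes that carboxylate the ligands with vitamin K (4 genes), shedding proteases and further ligands (5), signalling from the receptors (18), other receptors and bridges for dying cells (18) and exposure of phosphatidylserine (5). In the deep brain 2 of 281 tests rose and 3 fell in mutants, and in the cortex 2 of 176 rose and 2 fell, all in the lists of signalling genes and of other receptors and bridges. Of the 5 calls in the deep brain, 4 were among 36 tests in astrocytes and 1 among 38 in oligodendrocytes, where 5.01% and 1.74% of all genes were called. In the cortex 2 were among 29 tests in astrocytes, 1 among 32 in oligodendrocytes and 1 among 24 in microglia, where 2.36%, 1.07% and 0.88% of all genes were called. Outside the CAM-like cluster edgeR called 0 of 32 tests in microglia (2 at an unadjusted p under 0.05, DESeq2 0).

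The bridging protein *Mfge8*, which links phosphatidylserine to integrins rather than to TAM receptors, was the gene that passed most often. In deep brain astrocytes it was at 151, 181 and 255 CPM (lowest, median and highest mouse) in mutants and 231, 313 and 392.2 in controls, a fall of -0.68 ± 0.15 (edgeR, adjusted p = 0.0143). In cortical astrocytes it was at 236, 362 and 505 CPM in mutants and 766, 892 and 1092 in controls, and the groups did not overlap (-1.33 ± 0.15, adjusted p = 3.46e-05). Mural markers in the astrocyte class had medians of 115.6 CPM in mutants and 169.9 in controls of the deep brain, and 127.4 and 190.6 in the cortex. Fibroblast markers were also lower in mutants (34.17 and 38.68, 17.28 and 29.77), and microglial ones higher (83.7 and 78.39, 141.7 and 114.1). Their part in this fall was not tested. *Mfge8* also fell in oligodendrocytes, from 16.3 to 11.5 CPM in the deep brain (-0.49 ± 0.11, adjusted p = 0.0409) and from 23.5 to 10.4 CPM in the cortex (-1.09 ± 0.24, adjusted p = 0.0298). Astrocyte markers in the oligodendrocyte class were at 181.3, 224.9 and 297.4 CPM in mutants and 199.9, 288.9 and 313.9 in controls of the deep brain, and at 216.0, 287.1 and 409.6 and 310.0, 355.6 and 475.5 in the cortex, and their part in this fall was not tested. Its level differed between regions too, by -1.61 ± 0.14 in astrocytes of controls (adjusted p = 7.41e-08), whose clusters differ between the regions as described for *Mertk*. Of the deep brain astrocytes, 4521 mutant and 3218 control nuclei were in the *Slc6a11* cluster and 1200 and 1405 in the larger *Slc1a3* cluster, and the part of this split in the genotype differences was not tested.

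The scavenger receptor *Scarb1*, which binds lipoproteins and phosphatidylserine, rose in deep brain astrocytes of mutants, from 14.3 ± 2.31 to 33.5 ± 10.1 CPM (1.26 ± 0.18, edgeR, adjusted p = 0.00102). *Pik3r1*, a regulatory subunit of phosphatidylinositol 3-kinase, fell in the same cells from 316 ± 29.8 to 226 ± 45.7 CPM (-0.50 ± 0.12, edgeR, adjusted p = 0.022). *Elmo1*, a partner of Dock proteins in activating Rac, rose in cortical astrocytes from 15.4 ± 12.0 to 49.4 ± 25.5 CPM (1.36 ± 0.37, edgeR, adjusted p = 0.0499). Microglial markers in these astrocytes were at 80.4, 141.7 and 402.2 CPM in mutants and 60.02, 114.1 and 160.0 in controls, and their part was not tested. Between regions in controls 12 of 203 tests rose and 14 fell, 22 of them among 43 tests in neurons, where 36.5% of all genes were called and *Vav3*, an exchange factor for Rac, was higher in the deep brain by 2.30 ± 0.12 (adjusted p = 1.92e-08). For the interaction edgeR called 0 of 222 tests (15 at an unadjusted p under 0.05, DESeq2 1).

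As a last description, the pattern of each member over 20 points, each a class in a region, was set beside 12833 genes by Pearson's r of log2(CPM + 1). The points share libraries and differ in depth, so no p is given. The closest genes were *Laptm4a* (0.874) and *Tmem51* (0.831) for *Axl*, *Sat1* (0.890), *Lrp5* (0.873) and *Irak2* (0.872) for *Mertk* and *Pak7* (0.935), *Map7* (0.923) and *Hsf5* (0.920) for *Tyro3*. For the ligands they were *Ap1s2* (0.823), *Dnaaf3* (0.815) and *Lpin2* (0.789) for *Gas6* and 4930599N23Rik (0.913), *Stat3* (0.903) and *Il6st* (0.896) for *Pros1*. Among the members, *Mertk* and *Pros1* had the highest value (0.782), *Axl* and *Mertk* 0.708, and *Axl* and *Tyro3* the lowest (-0.719).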

How the data were processed

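Nuclei of deep brain and cortex were sequenced by the study with the 10x Genomics 5′ chemistry. Per the labels and the methods, the authors aligned reads to mm10 with Cell Ranger 5.0.1 (reads written by bcl2fastq 2.20.0.422), introns included, and deposited counts of UMIs per gene and barcode without normalization. Genotype, region, age and sex came from the sample labels, and the replicate number names a mouse. The members and all lists of genes were chosen with earlier results of these data known. Members were all named, and pathway genes were named where they passed between genotypes, at most the 5 largest per comparison, with *Vav3* and *Mfge8* between regions added after their values were seen. Some genes that the rules would name are counted but not reported here by name.

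Nuclei were scaled to 1000 UMIs, log-transformed and clustered on 2000 variable genes without the 5 members and 20 components (30 for microglia) with Seurat 5.3.0, at resolutions of 0.01, 0.1 and 0.4 for microglia, after scanpy 1.11.5 (Python 3.11.15). Clusters were named from 98 marker genes, of which 1 (*Clec7a*) was not analysed here, by rules set once the clusters were known. Clusters led by mitochondrial genes, by doublets or by markers of another class stayed unnamed. Scrublet called 5.93% of deep brain nuclei. In the cortex it called 17.9% (23.2% of mutant and 10.1% of control nuclei), very unevenly between libraries. In both regions the called nuclei were removed only as an alternative. The genes *Rbfox3*, *Aqp4*, *Mbp* and *Mrc1* had to be at 0 UMIs in a nucleus of the microglial class.

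Counts were summed per library and class, for libraries with at least 10 nuclei and classes with at least 4 such libraries per genotype. They were tested with edgeR 4.0.16 (filter on low counts, TMM, quasi-likelihood, R 4.3.3) without covariates, and with DESeq2 1.42.0 as an alternative. A standard error is the size of the log2 fold change over the square root of F. CPM printed in the text are scaled by all UMIs of the class, and fold changes by TMM. Scripts were tested on simulated counts. Alternatives were RLE factors, no filter, a block, leaving out each mouse, Scrublet removal, other limits and resolutions, and, added after the data were seen, age groups, a block of mice of the same age, and kinds of neuron and astrocyte. Mutants and controls 1 to 4 had the same age to the day, as had mutant 5 and control 6 and mutant 6 and control 5, but no source names a shared litter or batch, and the numbers were not taken as pairs. Region libraries came from the same mice, whose deviations correlated with r of 0.13 to 0.501 in astrocytes. Intervals for counting error are Poisson for levels and Clopper-Pearson for shares, at 95%. Where nothing says that libraries were prepared apart, p-values measure only the spread between these samples. In fits without the filter on low counts they also depend on the low-count genes taken in. Gene positions came from GENCODE M21. Figures used matplotlib 3.10.9.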

Additional observations from a re-analysis of the deposited data

Results flagged for a closer look

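Of 106 groups of 4 to 10 libraries checked for the members, 4 had 1 library apart from the rest by Dixon's test, and chance sets apart about 1 in 20. *Axl* in deep brain neurons was at 0.411 CPM in control 2 (24 UMIs) and at 0.174 to 0.261 in the other controls. *Mertk* in deep brain neurons was at 0.868 CPM in control 3 (40 UMIs) and at 1.44 to 1.70 in the other controls. *Gas6* in deep brain OPC was at 46.0 CPM in control 5 (70 UMIs) and at 35.5 to 39.4 in the other controls. *Gas6* in cortical astrocytes was at 83.4 CPM in mutant 3 (17 UMIs) and at 42.7 to 50.9 in the other mutants.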

How the results depend on the processing

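Levels of the members in the microglial clusters moved by less than their counting interval in all 30 alternative values, from other resolutions. Of 383 alternative fits of members, 339 kept the direction and side of the threshold, 27 lost the call, 12 gained one and 5 reversed. With no low-count filter edgeR called 3 members between genotypes in the deep brain, *Axl* in microglia, *Gas6* in endothelial cells (0.91, adjusted p = 0.0043) and *Mertk* in OPC (0.44, adjusted p = 0.00118), where 0.349%, 0.983% and 0.34% of all genes were called. With the replicate block it called 1 there, *Gas6* in endothelial cells (0.86, adjusted p = 0.0431), and 1 in the cortex, *Pros1* in oligodendrocytes (0.85, adjusted p = 0.0167). The deviations of mice with the same number correlated at -0.328 to 0.58. The best match had the same number in 4 cases in deep brain microglia and 5 in cortical microglia. It did in 2 or 3 cases in the other classes compared. No source names pairs, so the main fits did not use the numbers, and the calls given here depend on that choice. A block of mice of the same age, added after the data were seen, gave 0 calls in the deep brain and 1 in the cortex, *Pros1* in oligodendrocytes (0.96, adjusted p = 0.00609). Removal of Scrublet doublets also gave 1 call in the deep brain (*Gas6* in endothelial cells, 0.96, adjusted p = 0.0288). In the cortex DESeq2, no filter and mice 1 to 3 each gave 1 call, *Pros1* in oligodendrocytes. Leaving out each mouse gave 0 to 1 calls in each region's genotype comparison (*Gas6* in endothelial cells without control 1 or control 3, adjusted p = 0.0393 and 0.0444, and *Pros1* without mutant 5, adjusted p = 0.0175), 4 to 5 between the regions and 0 to 0 in the interaction, outside the CAM-like cluster and in the shares. Between the regions 4 calls were left with astrocyte clusters led by *Slc1a3*, where *Mertk* was lost (-0.20, adjusted p = 0.661, 0.727% of genes called). With *Slc17a7* neurons or with *Gad1* or *Gad2* neurons 2 were left, where *Gas6* (-0.0706) and *Tyro3* (0.1293) reversed in the latter and 0.229% and 0.618% of the genes tested in these neurons were called. Mice 1 to 3 gave 3 calls (5.64% of genes called in astrocytes, 27.5% in neurons) and mice 4 to 6 gave 1 (12.9% in neurons). There were 8 with all nuclei of the microglial class (19.8% of genes called in microglia). That setting added *Mertk* (0.46), *Tyro3* (-2.18) and *Pros1* (0.35) in microglia, and nuclei with markers of other classes are part of it. With the mouse as a replicate block all 5 calls between the regions were kept, with *Mertk* in astrocytes at -0.85 (adjusted p = 9.16e-09). Leaving out mice turned the sign of *Mertk* (-0.0038 to 0.1053) and *Pros1* (-0.0929 to 0.0009) in deep brain microglia, of *Pros1* outside the CAM-like cluster (-0.0997 to 0.0034) and of the share of nuclei with *Mertk* (-1.36 to 0.3356 points), which thinning turned to 1.819. With all nuclei of the class 1 share passed, that of *Axl* (exact permutation test, 3.97% against 1.27%, adjusted p = 0.0217). Of the pathway tests DESeq2 called 8 between genotypes in the deep brain, where edgeR called 5. Where a low count left wide intervals, as for *Axl* in microglia and *Tyro3* in every immune class, the counts limit what can be seen.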
